A study of Mus musculus with 9 samples.

Results

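The sterol genes described here were 28 mouse genes of cholesterol synthesis (19 genes), its regulation by the sterol regulatory element binding proteins, or SREBPs (5 genes), and sterol transport (4 genes). They were followed in the retina of female albino mice kept under white light-emitting diodes (LEDs). The genes were taken by name from textbook pathway membership, and each was read at a probe set (a group of short array probes for 1 transcript) annotated to that gene alone, taking the brightest by mean over 9 arrays. Of the 28 genes, 27 had such a probe set, against 18193 genes in the whole table, and all 27 passed a filter on dim probe sets that left 12761 genes. Acat2, which makes the acetoacetyl-CoA that enters the pathway, was not analysed here.

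The 9 Affymetrix mouse arrays held 3 groups of 3 arrays. The 7378K group was kept for 14 days under LEDs of a bluish white (correlated colour temperature 7378K) at 1000 lx, and the 2954K group for 14 days under LEDs of a warm white (2954K) at 1000 lx. The control group was kept in a dark environment, with no illuminance in the labels. All mice were females of the BALB/c strain (written "Babl/c" in the labels), 10 weeks old, on 12 h on and 12 h off, with no genetic change named in the labels. Each array measured a pool of 3 right-eye retinas, described as the neural layer freed of the pigment epithelium. Each test thus compared 3 pools with 3 pools. In such bulk tissue, fewer cells of a type and less RNA per cell cannot be told apart.

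Cholesterol is built from acetyl-CoA through mevalonate. Phosphorylated intermediates become isoprenoid units, which are joined to farnesyl diphosphate and then squalene, and squalene is closed into a ring and trimmed to cholesterol. When membrane sterol is low, the escort protein Scap carries SREBPs to the Golgi apparatus, where they are cleaved, and the released part switches on the synthesis genes. Insig1 and Insig2 hold Scap back when sterol is plentiful. The retina makes cholesterol of its own and exchanges it with the blood, and photoreceptor outer segment membranes carry it.

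SREBPs bind promoters together with the factors NF-Y and Sp1, so the 250 bases before the start were searched on both strands for TCACNCCAC (a form of the sterol regulatory element), CCAAT (the NF-Y box) and GGGCGG (the Sp1 box). RefSeq sequences on build GRCm38.p6 were held for 22 of the 28 genes, some with several starts. Shown are the only member with a sterol element match (Hmgcs1) and those members with a sequence that passed the expression test below (Mvd, Srebf1 and Pmvk). The windows are chr13:119690101-119690350 (plus strand), chr8:122443423-122443672 (minus strand), chr11:60210472-60210721 (minus strand) for 1 of the 3 Srebf1 starts, and chr3:89454291-89454540 (plus strand) for 1 of the 2 Pmvk starts. They are written 5′ to 3′ towards the gene, and capitals mark every match to the 3 motifs on either strand.
Hmgcs1: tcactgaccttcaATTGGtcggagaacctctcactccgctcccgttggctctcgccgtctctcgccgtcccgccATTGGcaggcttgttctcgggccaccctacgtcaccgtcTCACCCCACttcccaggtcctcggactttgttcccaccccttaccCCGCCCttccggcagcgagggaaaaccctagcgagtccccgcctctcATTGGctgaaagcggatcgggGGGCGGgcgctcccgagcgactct
Mvd: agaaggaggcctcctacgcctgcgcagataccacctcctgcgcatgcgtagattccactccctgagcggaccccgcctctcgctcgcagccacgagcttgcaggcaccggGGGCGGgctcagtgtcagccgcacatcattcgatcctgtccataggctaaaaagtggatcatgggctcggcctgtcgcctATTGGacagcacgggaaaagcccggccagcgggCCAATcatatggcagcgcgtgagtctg
Srebf1: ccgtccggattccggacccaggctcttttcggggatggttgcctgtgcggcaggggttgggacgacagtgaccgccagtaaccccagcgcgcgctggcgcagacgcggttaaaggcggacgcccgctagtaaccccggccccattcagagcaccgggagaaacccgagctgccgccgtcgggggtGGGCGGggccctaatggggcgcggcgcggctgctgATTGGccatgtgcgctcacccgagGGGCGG
Pmvk: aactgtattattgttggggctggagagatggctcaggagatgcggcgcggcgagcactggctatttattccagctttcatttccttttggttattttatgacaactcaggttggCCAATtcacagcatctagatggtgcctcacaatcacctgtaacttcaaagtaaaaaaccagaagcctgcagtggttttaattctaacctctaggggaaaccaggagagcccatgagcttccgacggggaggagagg
The sterol element match stood 137 to 129 bases before the Hmgcs1 start, with 3 CCAAT and 2 GGGCGG matches in the same window. Of the 22 genes, 1 held TCACNCCAC in any window, against 1.22% of 27025 genes. CCAAT stood in 19 of the 22 genes (86.4%), against 37.5% of all genes, and GGGCGG in 20 of 22 (90.9%), against 35.4%. The Pmvk window shown held 1 CCAAT match and neither of the other motifs, and the other Pmvk window held none of the 3. No match in the windows shown shares a base with another. A match is a description of these letters only.

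Values are log2 signals as deposited, so a difference of 1 is a doubling, and a gene is called changed at an adjusted p under 0.05 (limma, Benjamini-Hochberg over all 12761 genes). Under 7378K light, 4 of the 27 sterol genes were called against controls. Pmvk rose, and Mvd, Fdps and Srebf1 fell. In that comparison 3.52% of all genes were called, 2.36% as higher and 1.16% as lower. Under 2954K light only Pmvk was called, higher, against 1.22% of all genes called and 1.03% called as higher. Between 7378K and 2954K none of the 27 was called, where 0% of all genes were called in limma. At an unadjusted p under 0.05 that comparison had 0 of the 27 genes higher and 4 lower, and 320 higher and 199 lower of all genes. Both LED groups were compared with the same 3 control arrays, so their differences are given side by side and are not independent.

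**Figure D1:**
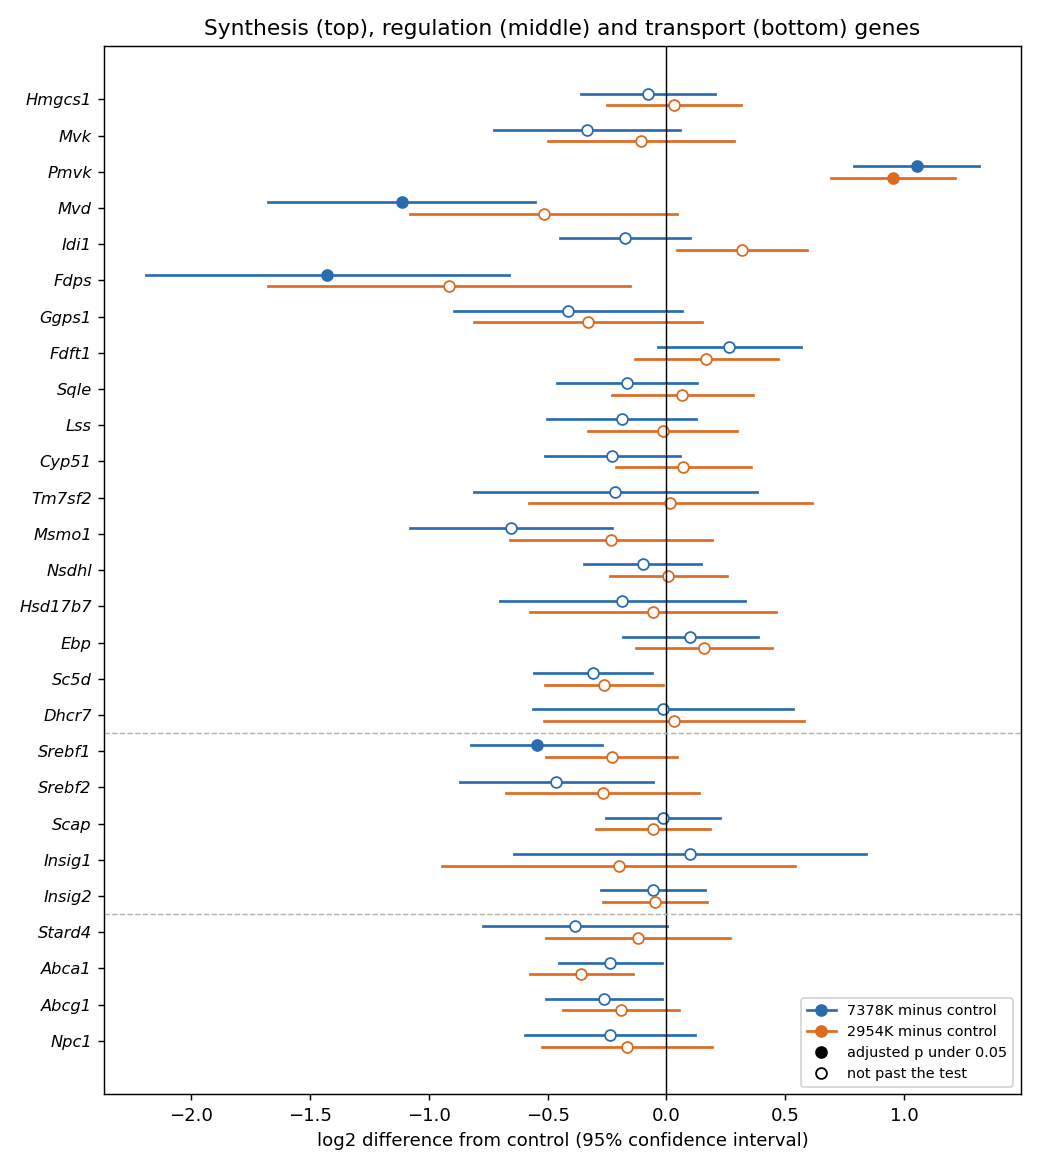
Log2 difference of each sterol gene from control under 7378K (blue, upper of each pair) and 2954K (orange) light, with 95% confidence intervals from limma and filled points for an adjusted p under 0.05. Pmvk lies near +1 in both comparisons, the 3 filled points left of 0 are Mvd, Fdps and Srebf1 under 7378K light, and 23 of the 27 blue points lie below 0.

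A measure of shortened or incompletely copied RNA moved with the groups and is given before the single genes. The difference between 3' and 5' control probe sets of Gapdh and beta-actin, which grows as RNA is shortened or copied incompletely, stood on the log2 scale at 1.80, 1.67 and 1.55 for 7378K, at 2.78, 0.21 and 1.05 for 2954K and at 0.33, 0.20 and 0.42 for control. All 3 7378K arrays lay above all controls, while 2954K array 2 lay within the control range and 2954K array 1 was the highest of the 9. Within groups, 5 of the 27 sterol genes changed with this measure (adjusted p under 0.05 for the slope), where 7.19% of all genes did, and 3 of these fell, where 2.81% of all genes did. The slopes rest mostly on the 3 widely spread 2954K arrays. Its part in the differences between groups was not tested beyond the fit that holds it as a covariate, whose values are given beside each called gene. That fit called 1.07% of all genes in 7378K against control and 0.799% in 2954K against control. The same fit with the dap spike-in, an RNA added before labelling, called 0.603% in 7378K and 0.917% in 2954K against control. The 3' minus 5' difference of dap was 2.76, 2.70 and 2.77 in 7378K and 3.02, 1.34 and 2.19 in 2954K arrays. In control arrays it was 1.64, 1.37 and 1.81. Dap is not retinal RNA, and whether retinal RNA itself differed in quality between groups was not tested.

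Markers of other cells and tissues also varied between arrays. Of 9 microglia and macrophage markers, 8 were called higher in each LED group, and their summed log2 signal was 13.14 to 13.26 in 7378K arrays, 13.00 to 13.12 in 2954K arrays and 11.14 to 11.71 in control arrays. Of 8 rod markers, 2 were called lower in 7378K and 0 in 2954K arrays, with summed signals of 17.19 to 17.39 in 7378K arrays, 17.09 to 17.50 in 2954K arrays and 17.29 to 17.57 in control arrays. Of 9 Müller glia markers, 2 were called higher in 7378K and 1 in 2954K arrays, and the sums were 16.24 to 16.35, 16.20 to 16.28 and 15.84 to 16.18 in 7378K, 2954K and control arrays. The tissue label was checked with rod genes, of which Gnat1, the rod transducin subunit, averaged 14.75 ± 0.16 in 7378K, 14.69 ± 0.30 in 2954K and 14.72 ± 0.18 in control arrays (SD, n = 3 each). The lens marker Crybb2 was highest on array 3 within every group, with 9.99 for 7378K, 12.63 for 2954K and 14.75 for control, against 3.08 and 3.71 in the other 7378K arrays, 3.84 and 3.98 in the other 2954K arrays, and 6.58 and 7.69 in the other controls. Rpe65 of the pigment epithelium ranged over arrays between 9.73 and 11.83, with no pigment epithelium marker called. The summed signal of the pigment epithelium markers was 14.35 to 15.38 in 7378K, 15.16 to 15.61 in 2954K and 13.77 to 15.52 in control arrays. These markers were thus read on all 9 arrays, though the retinas are described as freed of that layer. The part of these tissues in the sterol gene results was not tested, beyond leaving out the third arrays.

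Pmvk encodes phosphomevalonate kinase, which adds the second phosphate to mevalonate. Its log2 signal was 10.87, 11.01 and 10.69 in 7378K arrays, 10.66, 10.68 and 10.94 in 2954K arrays and 9.79, 9.70 and 9.92 in control arrays. Every LED array lay above every control array, by more than the spread within any group. Pmvk rose by 1.05 ± 0.12 (SE) under 7378K light, a fold of 2.08 (95% confidence interval 1.73 to 2.49, limma adjusted p = 0.00046). Under 2954K light Pmvk rose by 0.95 ± 0.12, a fold of 1.94 (1.62 to 2.32, limma adjusted p = 0.00151). With the 3' minus 5' covariate the differences were 1.07 (limma adjusted p = 0.0055) in 7378K and 0.97 (limma adjusted p = 0.00624) in 2954K, and the slope on that measure was -0.01 per unit. With the dap covariate they were 1.03 (limma adjusted p = 0.0192) in 7378K and 0.95 (limma adjusted p = 0.00485) in 2954K. The 7378K group was 0.10 above the 2954K group, with an interval of -0.16 to 0.36, so no difference between the colours could be shown. Both calls were kept in all 20 alternative settings, including each left-out array. Pmvk had 1 probe set on the array, so no second one was there to compare.

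**Figure D2:**
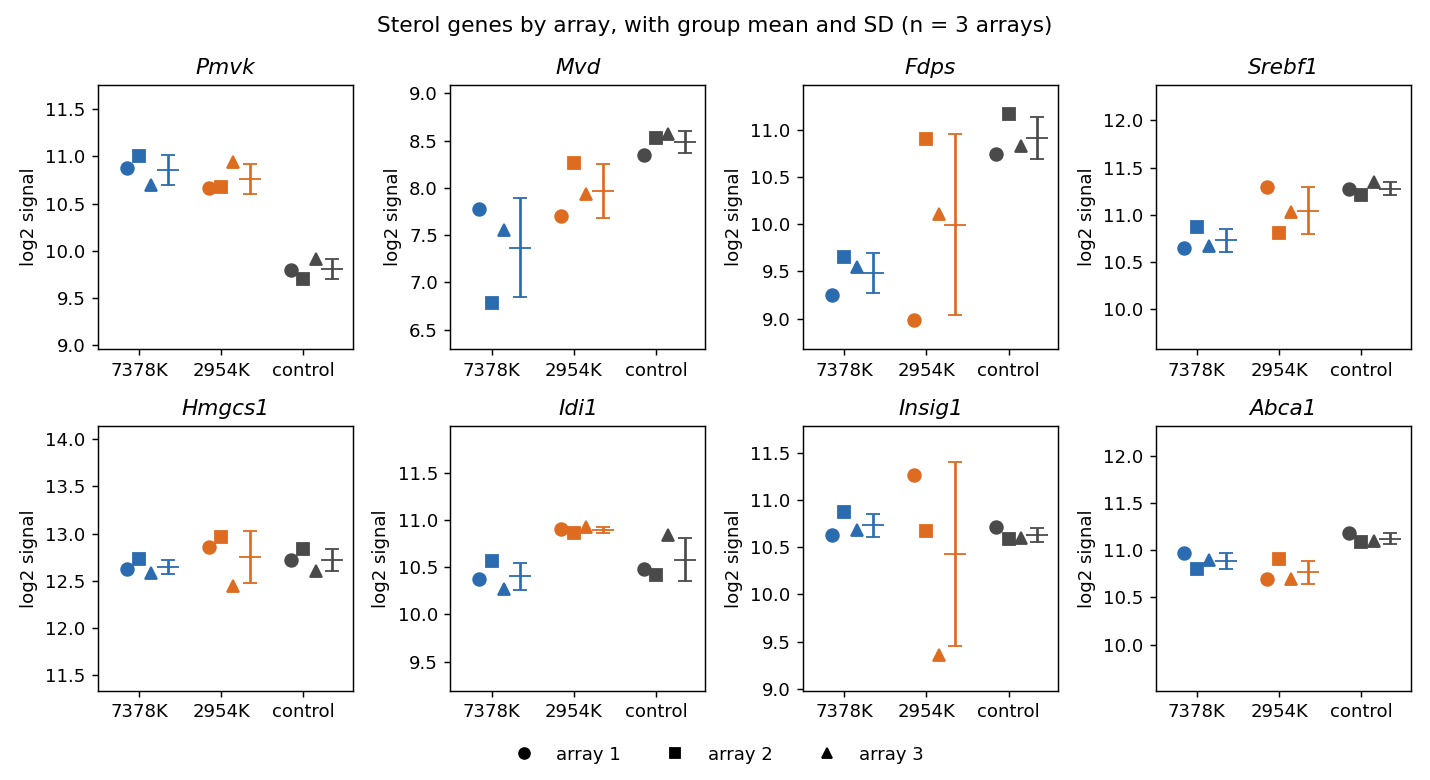
Log2 signal of 8 sterol genes on each array, by group (7378K, 2954K, control), with array 1 as circles, array 2 as squares and array 3 as triangles, and bars for the mean ± SD (n = 3). Every panel spans the same number of log2 units. The LED arrays of Pmvk lie clear above its controls, and Fdps and Insig1 spread most in the 2954K group. Idi1 of the 2954K arrays lies above both other groups at the probe set shown, though not at its other one.

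Mvd, mevalonate diphosphate decarboxylase, acts 1 step after Pmvk and makes isopentenyl diphosphate. Its log2 signal was 7.78, 6.78 and 7.55 in 7378K arrays, 7.70, 8.26 and 7.94 in 2954K arrays and 8.35, 8.53 and 8.57 in control arrays. The 7378K arrays were all below the controls, with array 2 the lowest, and the 2954K arrays were also all below them. Mvd fell by 1.12 ± 0.26 (SE) under 7378K light, a fold of 2.17 lower (1.47 to 3.20, limma adjusted p = 0.0362). Under 2954K light the difference was -0.52 (limma adjusted p = 0.42). With the 3' minus 5' covariate the 7378K difference was -0.85 (limma adjusted p = 0.379), and with the dap covariate -0.79 (limma adjusted p = 0.567). A second probe set for the same gene, whose suffix s marks probes shared between transcripts, averaged 7.91 ± 0.20 in 7378K, 7.93 ± 0.20 in 2954K and 7.93 ± 0.20 in control arrays (SD, n = 3 each), a 7378K difference of -0.02. The fall thus stood on 1 of 2 probe sets, and it was not past the test after leaving out any control array, 2954K array 3, 7378K array 2 or 7378K array 3 (highest adjusted p = 0.143).

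Fdps, farnesyl diphosphate synthase, joins the isoprenoid units. Its log2 signal was 9.25, 9.65 and 9.54 in 7378K arrays, 8.98, 10.90 and 10.10 in 2954K arrays and 10.75, 11.16 and 10.82 in control arrays. The 7378K arrays lay below all controls, and the 2954K arrays spread over most of the range, with array 2 among the controls and array 1 the lowest of the 9. Fdps fell by 1.43 ± 0.35 (SE) under 7378K light, a fold of 2.69 lower (1.59 to 4.57, limma adjusted p = 0.0466). Under 2954K light the difference was -0.92 (limma adjusted p = 0.294). Within groups Fdps fell by 0.74 per unit of the 3' minus 5' difference (limma adjusted p of the slope = 0.00169), and with that covariate the 7378K difference was -0.43 (limma adjusted p = 0.349). With the dap covariate it was -0.15 (limma adjusted p = 0.887). The call was also lost without any 1 control or 7378K array and without 2954K array 3 (highest adjusted p = 0.183). Without 2954K array 2, whose 3' minus 5' difference was the lowest of its group, Fdps was also lower under 2954K light (-1.37, limma adjusted p = 0.0163).

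Srebf1 encodes SREBP-1, the member of the family best known for fatty acid genes. Its log2 signal was 10.65, 10.87 and 10.67 in 7378K arrays, 11.30, 10.81 and 11.03 in 2954K arrays and 11.28, 11.21 and 11.35 in control arrays. All 7378K arrays lay below all controls, and the 2954K arrays overlapped both groups. Srebf1 fell by 0.55 ± 0.13 (SE) under 7378K light, a fold of 1.46 lower (1.21 to 1.77, limma adjusted p = 0.0364). Under 2954K light the difference was -0.23 (limma adjusted p = 0.46). With the 3' minus 5' covariate the 7378K difference was -0.80 (limma adjusted p = 0.0056), and with the same measure of the dap spike-in it was -0.88 (limma adjusted p = 0.00775). The call was lost without any 1 control or 7378K array (highest adjusted p = 0.166) and kept without each 2954K array. Srebf1 had 1 probe set, which does not separate its transcript forms.

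The other early synthesis genes were not called. Hmgcs1, which makes HMG-CoA, the precursor of mevalonate, had log2 signals of 12.63, 12.73 and 12.58 in 7378K arrays, 12.86, 12.97 and 12.44 in 2954K arrays and 12.72, 12.84 and 12.61 in control arrays. The 3 groups overlapped, with a difference of -0.08 (interval -0.36 to 0.20) under 7378K light and 0.03 (-0.25 to 0.31) under 2954K light. Mvk, mevalonate kinase, averaged 8.10 ± 0.30 in 7378K, 8.33 ± 0.03 in 2954K and 8.44 ± 0.13 in control arrays (SD, n = 3 each). Its 7378K arrays lay below its controls (-0.33, limma adjusted p = 0.293). Idi1, which isomerises isopentenyl diphosphate, read 10.37, 10.56 and 10.27 in 7378K arrays, 10.90, 10.86 and 10.93 in 2954K arrays and 10.48, 10.41 and 10.84 in control arrays. At this probe set the 2954K arrays of Idi1 lay above every array of both other groups. Idi1 was 0.49 lower there in 7378K than in 2954K (interval -0.77 to -0.22, unadjusted p = 0.00204, limma adjusted p = 0.978) and 0.32 above control under 2954K light (limma adjusted p = 0.308). The other Idi1 probe set past the filter read 9.48, 9.66 and 9.70 in 7378K, 10.16, 10.09 and 9.21 in 2954K and 9.65, 9.68 and 9.18 in control arrays. Its groups overlapped, and its 7378K difference from control was 0.11, against -0.17 at the chosen probe set.

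After the farnesyl step, Ggps1 makes geranylgeranyl diphosphate for protein prenylation and Fdft1 commits farnesyl units to squalene. Ggps1 averaged 9.28 ± 0.09 in 7378K, 9.37 ± 0.56 in 2954K and 9.70 ± 0.11 in control arrays (SD, n = 3 each), and its 7378K difference of -0.42 had a limma adjusted p of 0.286. Within groups its signal fell by 0.43 per unit of the 3' minus 5' difference (limma adjusted p = 0.00672). With that covariate its 7378K difference was 0.16. Fdft1 averaged 11.71 ± 0.08 in 7378K, 11.61 ± 0.32 in 2954K and 11.44 ± 0.07 in control arrays, with 7378K arrays above controls (0.27, limma adjusted p = 0.277) and a slope in the opposite sense of 0.24 (limma adjusted p = 0.0153). The covariate-fitted 7378K difference of Fdft1 was -0.07. Sqle, squalene epoxidase, read 9.90, 10.04 and 10.24 in 7378K arrays, 10.21, 10.39 and 10.29 in 2954K arrays and 10.23, 10.00 and 10.46 in control arrays. Its groups overlapped, with differences of -0.17 (interval -0.46 to 0.13) under 7378K and 0.07 (-0.23 to 0.36) under 2954K light.

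From the closing of the sterol ring on, 9 genes were measured and none was called. Msmo1, a sterol methyl oxidase, lay nearest to the threshold, at 10.08, 10.33 and 10.18 in 7378K arrays, 10.24, 11.18 and 10.44 in 2954K arrays and 10.76, 10.97 and 10.83 in control arrays. Its 7378K arrays all lay below the controls (-0.65, limma adjusted p = 0.085), and its 2954K array 2 was the highest of the 9. Within groups it fell by 0.33 per unit of the 3' minus 5' difference (limma adjusted p = 0.0348), and with the covariate the 7378K difference was -0.20. Sc5d, which sets a double bond in the sterol ring, averaged 9.79 ± 0.08 in 7378K, 9.83 ± 0.14 in 2954K and 10.10 ± 0.09 in control arrays (SD, n = 3 each), and both LED groups lay below the controls (-0.31 and -0.26, limma adjusted p = 0.143 in 7378K and 0.353 in 2954K). Cyp51, the lanosterol demethylase, was at 9.17 ± 0.03 in 7378K, 9.47 ± 0.21 in 2954K and 9.40 ± 0.07 in control arrays, below both other groups without overlap in 7378K arrays (limma adjusted p = 0.326 against control). Lss, which closes the ring, and Nsdhl, a dehydrogenase of the sterol demethylation steps, were also lower without overlap in 7378K arrays, by 0.19 and 0.10 on the log2 scale, neither past the test. Tm7sf2, Hsd17b7, Ebp and Dhcr7 overlapped with controls in both LED groups, with 7378K differences of -0.22, -0.19, 0.10 and -0.02. Dhcr7, which turns dehydrocholesterol into cholesterol, rose with the 3' minus 5' difference within groups (slope 0.45, limma adjusted p = 0.0237). With the covariate its 7378K difference was -0.63, also not called.

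Over the 18 synthesis genes, 1 was called higher and 2 lower under 7378K light, and 15 were not called. Of all genes, 2.36% were called as higher and 1.16% as lower in that comparison. Their median difference was -0.19 in 7378K against control, beside 0.04 over all genes, and -0.17 with the 3' minus 5' covariate, beside 0.01 over all genes with it. The median was 0.01 in 2954K against control, as over all genes (0.01), and -0.15 in 7378K against 2954K (0.03 over all genes). Leaving out single arrays moved the last value between -0.25 without 2954K array 3 and -0.09 without 2954K array 2. In 7378K against control the arrays of 9 of the 18 (50%) lay lower without overlap, where 14.8% of all genes did, and 2 lay higher, where 21.6% of all genes did. Per array, 12, 9 and 13 of the 18 genes lay below the control range in 7378K arrays 1 to 3, and 6, 6 and 13 in 2954K arrays 1 to 3. The share of all genes below the control range was 26.9% to 30.8% on these 6 arrays. The mean difference of the 18 genes from the control mean came to -0.27, -0.18 and -0.25 for 7378K arrays 1 to 3 and to -0.08, 0.13 and -0.16 for 2954K arrays 1 to 3. Above the control range lay 2, 4 and 2 of the 18 genes in 7378K arrays 1 to 3, where 37.6%, 36.8% and 35.7% of all genes did. In 2954K arrays 1 to 3 the counts were 8, 10 and 3, where 38.6%, 24.2% and 31.9% of all genes did.

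**Figure D3:**
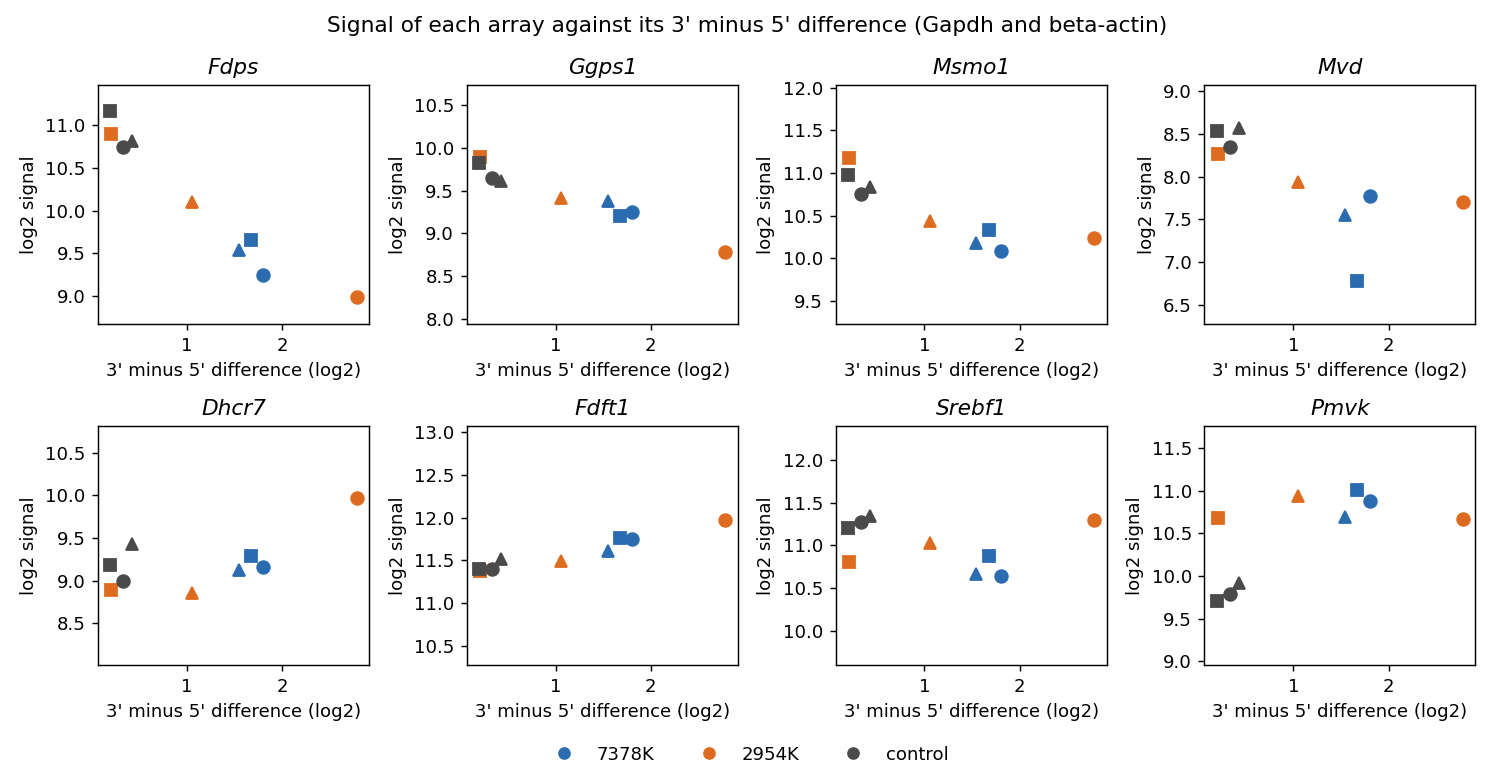
Log2 signal of 8 sterol genes on each array against that array's mean 3' minus 5' difference (log2) of Gapdh and beta-actin, with 7378K arrays in blue, 2954K in orange and control in grey. Every panel spans the same number of log2 units. Fdps, Ggps1 and Msmo1 fall from left to right, with 2954K array 2 beside the controls, Dhcr7 and Fdft1 are highest on 2954K array 1, and Pmvk of 2954K array 2 stays above the controls at the same position on the axis.

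Regulators of the pathway other than Srebf1 were not called in either LED group. Srebf2, the family member best known for cholesterol genes, had log2 signals of 9.10, 8.84 and 8.95 in 7378K arrays, 8.86, 9.37 and 9.24 in 2954K arrays and 9.13, 9.36 and 9.79 in control arrays. The 7378K arrays of Srebf2 were below all controls by a narrow gap (-0.46, limma adjusted p = 0.17), and its other probe set differed by 0.06. Insig1 read 10.63, 10.87 and 10.68 in 7378K arrays, 11.26, 10.67 and 9.36 in 2954K arrays and 10.71, 10.59 and 10.59 in control arrays. Its 2954K arrays had the largest SD of the 27 genes in that group (0.97) and held both its highest and its lowest value, and the 7378K difference was 0.10 (interval -0.64 to 0.84). Insig2 read 10.38, 10.51 and 10.47 in 7378K arrays, 10.32, 10.55 and 10.52 in 2954K arrays and 10.48, 10.55 and 10.50 in control arrays, with overlap of all groups and differences of -0.06 and -0.05 from control in 7378K and 2954K. Scap averaged 11.39 ± 0.04 in 7378K, 11.35 ± 0.15 in 2954K and 11.40 ± 0.17 in control arrays (SD, n = 3 each).

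The 4 transport genes lay lower in 7378K arrays than in control arrays without overlap, where 14.8% of all genes did. Their median difference was -0.25, beside 0.04 over all genes, and none was called. Abca1, which loads cholesterol onto apolipoprotein particles, read 10.97, 10.80 and 10.89 in 7378K arrays, 10.70, 10.91 and 10.69 in 2954K arrays and 11.18, 11.08 and 11.10 in control arrays. Both LED groups of Abca1 lay below every control, by 0.24 (limma adjusted p = 0.185) in 7378K and 0.36 (limma adjusted p = 0.134) in 2954K. Abcg1, which passes cholesterol to formed lipoproteins, read 10.85, 11.08 and 10.94 in 7378K arrays, 11.22, 10.88 and 10.98 in 2954K arrays and 11.30, 11.22 and 11.14 in control arrays. Its 7378K arrays lay below all controls (-0.26, limma adjusted p = 0.191) and its 2954K arrays overlapped them. Stard4, a soluble sterol carrier, and Npc1, which moves cholesterol out of lysosomes, differed by -0.38 and -0.24 under 7378K light (limma adjusted p = 0.224 and 0.418). With the 3' minus 5' covariate the 7378K differences were -0.15 for Abca1, -0.43 for Abcg1, -0.36 for Stard4 and 0.07 for Npc1. The median of the 4 with it was -0.25, beside 0.01 over all genes. Under 2954K light 1 of the 4, Abca1, was lower without overlap, where 7.53% of all genes were.

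Over all 27 genes, 15 (55.6%) lay lower in 7378K arrays than in controls without overlap and 2 (7.41%) lay higher, beside the 14.8% and 21.6% of all genes. In 2954K against control these counts were 3 lower and 2 higher, where 7.53% and 7.68% of all genes were. In 7378K against 2954K they were 2 lower, Idi1 and Cyp51, and 0 higher, where 3.28% and 5.27% of all genes were. The point estimate lay below control for 23 of the 27 in 7378K and for 17 in 2954K, where 44.0% and 48.2% of all genes did, and the median difference was -0.22 in 7378K and -0.06 in 2954K.

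Other probe sets of the same genes differed from those chosen. Of 60 single-symbol probe sets for these genes, 51 passed the filter, and 15 genes had more than 1. In 5 genes the probe sets pointed in opposite directions in 7378K against control. Hmgcs1 had -1.10 at a probe set that read 9.60, 9.87 and 9.78 in 7378K, 9.37, 10.92 and 9.95 in 2954K and 10.75, 11.08 and 10.69 in control arrays, and 0.27 at another. The -1.10 probe set fell by 0.57 per unit of the 3' minus 5' difference within groups (limma adjusted p = 0.00247), and its covariate-fitted difference was -0.32. Insig2 had the widest range of the 5, with probe sets at -1.33 and 0.15 beside the chosen one at -0.06. The -1.33 probe set had a slope of -0.50 (limma adjusted p = 0.0464) and a covariate-fitted difference of -0.64. Sc5d had one at -0.86 beside -0.31. The -0.86 one had a slope of -0.45 (limma adjusted p = 0.00702) and a covariate-fitted difference of -0.25. Fdft1 had one at -0.28 beside 0.27 at the chosen one, whose suffix x marks probes that can also match other transcripts. The chosen probe sets of Hmgcs1 and Hsd17b7 carry the same suffix. Other Hsd17b7 probe sets past the filter were at -0.37 and -0.56, beside -0.19 at the chosen one. Ggps1 had 4 probe sets, all below control, between -0.95 and -0.42, and Abcg1 had 2, at -0.50 and -0.26. With the 3' minus 5' covariate the 4 of Ggps1 lay between -0.57 and 0.16, and the 2 of Abcg1 at -0.57 and -0.43. With all probe sets as features, limma called 2.51% of them in 7378K against control and 0.64% in 2954K against control. Among the 51, only that of Pmvk was called, as higher in both, and 0 were called lower. A slope on the 3' minus 5' difference past the test was found for 10 of the 51. The share of all probe sets with such a slope was not counted, so this number has no direct background. With 1 probe set per gene it was 7.19% of all genes.

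**Figure D4:**
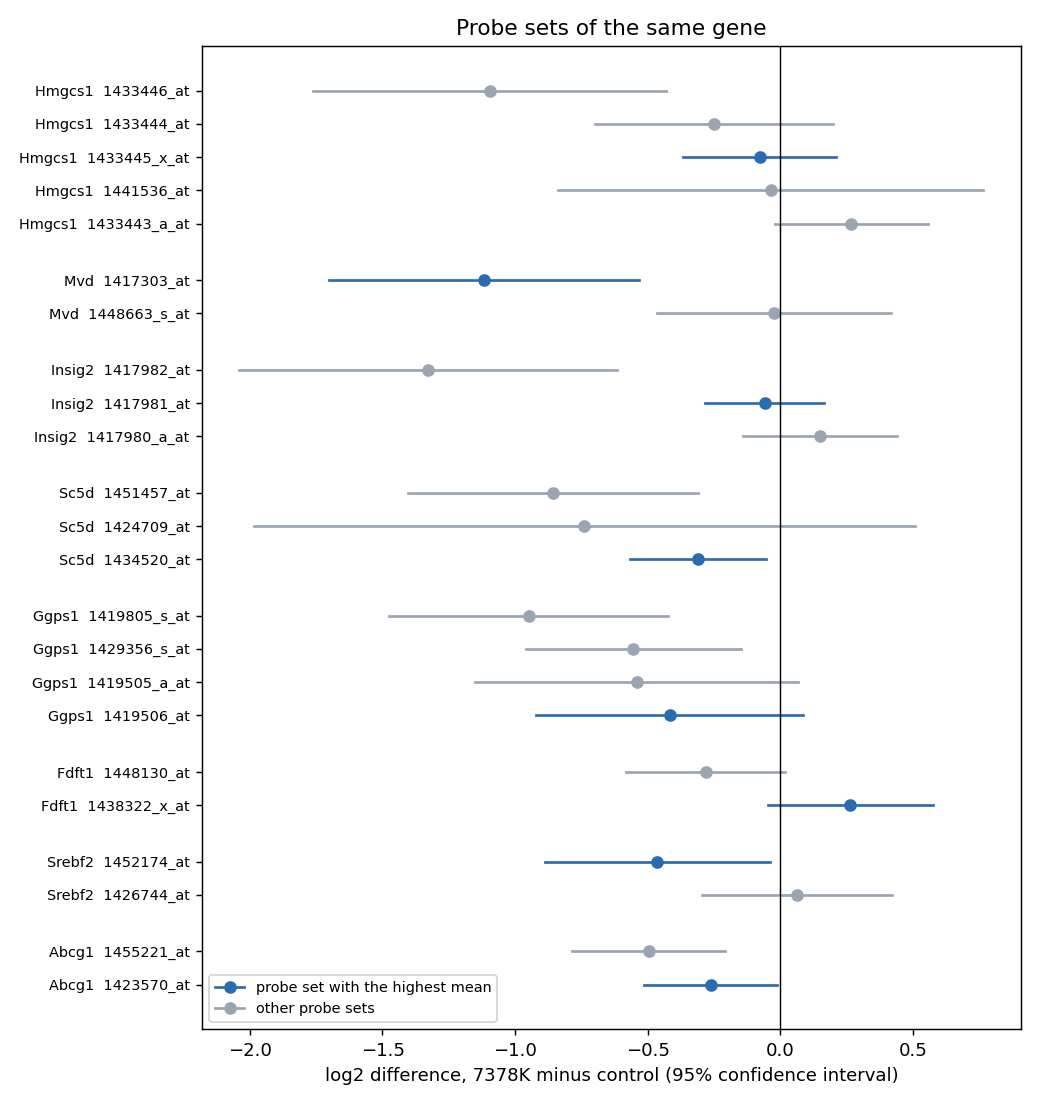
Log2 difference in 7378K against control, with 95% confidence intervals from limma, for each probe set past the filter of 8 sterol genes, with the chosen one (highest mean) in blue and the others in grey. The probe sets of Hmgcs1 range between -1.10 and 0.27, those of Mvd are at -1.12 and -0.02, and the 4 of Ggps1 all lie below 0.

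Genes around the pathway were counted on 5 further lists. In 7378K against control 2.36% of all genes were called as higher and 1.16% as lower. Of 12 fatty acid genes that SREBPs are known to switch on, Gpam rose and Me1 fell under 7378K light. The median difference of this list was 0.17, beside 0.04 over all genes. With the 3' minus 5' covariate it was 0.05, beside 0.01 over all genes. Gpam, which starts glycerolipid synthesis, averaged 12.00 ± 0.17 in 7378K, 11.88 ± 0.17 in 2954K and 11.55 ± 0.03 in control arrays (SD, n = 3 each). It rose by 0.45 under 7378K light (limma adjusted p = 0.0498; 0.31 with the 3' minus 5' covariate, limma adjusted p = 0.41). Me1, malic enzyme, a source of NADPH, averaged 9.75 ± 0.10 in 7378K, 10.27 ± 0.80 in 2954K and 11.06 ± 0.12 in control arrays, and fell by 1.31 under 7378K light (limma adjusted p = 0.0288; -0.50 with the covariate, limma adjusted p = 0.139). Of 9 genes of sterol sensing and turnover control, Rnf145, a ubiquitin ligase of sterol sensing, rose and Mylip, a ligase for lipoprotein receptors, fell under 7378K light. Rnf145 averaged 13.25 ± 0.05 in 7378K, 13.06 ± 0.24 in 2954K and 12.76 ± 0.12 in control arrays (0.49, limma adjusted p = 0.0471; 0.34 with the covariate, limma adjusted p = 0.395). Mylip averaged 10.38 ± 0.10 in 7378K, 10.76 ± 0.05 in 2954K and 10.81 ± 0.08 in control arrays (-0.43, limma adjusted p = 0.0335; -0.43 with the covariate, limma adjusted p = 0.153), and its 7378K arrays lay below all arrays of both other groups. None of these 4 calls was kept with the covariate.

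None of 7 uptake and lysosome genes, 16 genes of efflux, lipoproteins and transfer, and 5 genes of oxysterols and removal was called in limma in any comparison. At an unadjusted p under 0.05 in 7378K against control they held 5 higher and 1 lower, 2 higher and 0 lower, and 0 higher and 0 lower, in the order named, where 22.6% of all genes (1758 higher and 1125 lower) passed that threshold. The smallest unadjusted p of each list in that comparison belonged to Lrp8, a lipoprotein receptor (-0.52, unadjusted p = 0.0103, limma adjusted p = 0.108), Osbpl9, an oxysterol-binding protein relative (0.27, limma adjusted p = 0.165), and Hsd3b7, a bile acid enzyme (0.32, limma adjusted p = 0.257). The uptake and lysosome list had a median of 0.38 in 7378K and 0.35 in 2954K against control, and of 0.08 and 0.09 with the 3' minus 5' covariate. Over all genes these medians were 0.04 and 0.01, and 0.01 and -0.01 with the covariate. Under 2954K light 0 genes of the 5 lists were called, and the smallest unadjusted p was that of Elovl5, a fatty acid elongase (0.59, unadjusted p = 0.00398, limma adjusted p = 0.14).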

How the data were processed

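Retinal RNA of 9 pools was measured on 9 arrays. The authors deposited log2 signals for 45101 probe sets, and they are MAS5-type values per the submitters' processing notes, where MAS5 and affy stand without version or order. On each array they have a 2% trimmed mean of 500 on the linear scale, and they were used without further scaling. RNA integrity values and detection calls were not analysed here, and precision is limited by how few arrays there are. Genes were named from the platform annotation (34945 probe sets with 1 symbol, 932 with several, 9160 with none). The probe set with the highest mean stood for a gene, and genes under the 40th percentile of the means (5.91) were left out.

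A model of 3 group means over the 9 arrays, which leaves 6 residual degrees of freedom, was fitted in R 4.3.3 by limma 3.58.1 (lmFit, and eBayes with an intensity trend), with values read by data.table (version 1.17.8). P-values were adjusted by Benjamini-Hochberg within each comparison. Groups came from the labels and gave 3 comparisons, 7378K against control, 2954K against control and 7378K against 2954K. Labels do not say whether pools came from separate cages, so p-values measure the spread between these pools. A 3 against 3 permutation test cannot go below p = 0.1 and was not used. Confidence intervals are 95%. Only the fit of 3 group means was tested on simulated data, drawn with the same spread in every group. The covariate, slope, block and weighted fits were not tested in this way.

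The members and gene lists were chosen with earlier results of these data known. All members are accounted for, and per-array values are given for those called and for Insig1, Insig2, Srebf1, Srebf2, Hmgcs1, Sqle, Abca1 and Abcg1. Idi1, Msmo1 and 1 Hmgcs1 probe set were given per array after their values were seen. On the other lists called genes are named, or else the gene with the smallest p. Replicate numbers were checked as pairs: of 9 same-numbered pairs, 5 had deviations correlated over 0.1 (range 0.06 to 0.33). Of the 9 arrays, 8 were closest to their own number in both other groups. The labels give the numbers only as biological replicates, so the main fit did not pair the arrays. A fit with the number as a block is given below. Alternatives were other filters, the mean of probe sets, quantile normalisation, no trend, array weights and 2 covariates of 3' minus 5' differences. Further ones were 2-group fits, a replicate block, each array left out, and the third arrays left out. Fits by probe set and the slopes were added after seeing the data. Promoter bases are from RefSeq (GRCm38.p6). Figures were drawn with Python 3.11.15, pandas 2.3.3 and matplotlib 3.10.9.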

Additional observations from a re-analysis of the deposited data

How the results depend on the processing

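Pmvk kept its direction and its call in both LED comparisons under all 20 alternatives, with differences between 0.98 and 1.19 in 7378K and between 0.87 and 1.06 in 2954K. In 7378K against control the call of Srebf1 was kept in 11 of 20, of Mvd in 8 and of Fdps in 7, and none of the 3 turned its direction. Against 4 sterol genes called in 7378K against control, 2 were called without a filter on dim genes, 1 when a gene's probe sets were averaged, 1 without an intensity trend, 10 with array weights, 2 with the Gapdh and beta-actin covariate, 2 with the dap spike-in covariate, 8 with only the 2 groups compared and 1 without the third arrays. In 2954K against control, array weights called 2 in place of 1. Against 449 of all genes called in 7378K against control, the counts were 255 with probe sets averaged, 207 without an intensity trend, 2688 with array weights, 136 and 77 with the Gapdh and beta-actin and the dap covariates, 2174 with only the 2 groups compared and 146 without the third arrays. Against 156 in 2954K against control, they were 82, 101, 384, 102, 68 and 90 with probe sets averaged, no trend, array weights, the Gapdh and beta-actin covariate, the 2 groups alone and the third arrays left out. The median difference of the synthesis genes in 7378K against control was -0.13 with the dap covariate and -0.12 without the third arrays, against -0.19 as reported. The cause was not tested.

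Leaving out each array in turn gave 1 to 5 sterol genes and 144 to 1517 of all genes called in 7378K against control, 1 to 4 and 79 to 897 in 2954K against control, and 0 and 0 to 29 in 7378K against 2954K. The 897 came without 2954K array 2, which added Fdps, Msmo1 and Abca1 as lower, and the 1517 and 29 without 2954K array 1. The synthesis median lay between -0.25 and -0.14 in 7378K against control, between -0.06 and 0.14 in 2954K against control, and between -0.25 and -0.09 in 7378K against 2954K. Of 76 sterol gene differences that were not called, 34 kept their direction in every alternative and 9 were called in at least 1. Of 1520 alternative values of these, 112 had the sign turned.

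With the replicate number as a block, 638 of all genes and 5 sterol genes were called in 7378K against control (Msmo1 added, limma adjusted p = 0.0306), 163 and 1 in 2954K against control, and 0 in 7378K against 2954K. The medians of the synthesis genes were unchanged by that block (-0.19, 0.01 and -0.15). Of the 9 arrays, 8 were closest to their own number in both other groups, a hint from the data and not from the design. Intervals rest on a spread shared by the 3 groups. For Insig1 in 7378K against control the interval was -0.64 to 0.84. Its SD was 0.13 in 7378K, 0.97 in 2954K and 0.07 in control arrays, so the 2954K arrays, outside that comparison, gave most of this width. With 3 pools a group, differences within such an interval could not be shown.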
